A study of Mus musculus with 11 samples.

Results

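The infarcted and the non-infarcted hippocampus of mice given levetiracetam (LEV) and sampled 7 d after photothrombosis (PT) were compared across all genes. They are 2 of the 11 libraries of the series, chosen by their labels alone, with 1 library a side. All animals were C57BL/6N males. PT is a model of cortical stroke. Rose bengal, a light-sensitive dye, is injected (35 mg/kg), and LED light (565 nm, 200 mW) shone for 30 min on the left parietal region, on a circle of 3.5 mm, closes its vessels by clotting. LEV, used against seizures, acts by binding SV2A on synaptic vesicles, and animals drank it at 5 mg/mL. The infarcted library is the left hippocampus and the non-infarcted library is the right one, and both carry the same PT and LEV labels. The series text describes treatment from 1 month after PT onward, which leaves the timing of LEV in animals sampled at 7 d not given. Neither is the number of animals in a library, whether the 2 libraries share animals, or which of the ages in the series (8 to 10 and 65 to 85 weeks) was used. The other libraries were 1 of naive mice and pairs of sides for PT without LEV at 7 d and 1 m, with LEV at 1 m, and 2 m after PT with LEV withdrawn.

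After a cortical infarct, microglia and astrocytes of connected and neighbouring brain react. Microglia, the resident phagocytes, raise receptors, lysosomal proteases and complement, and astrocytes raise the intermediate filaments GFAP and vimentin. The hippocampus is also bordered by pia and arachnoid and crossed by arteries whose walls hold smooth muscle, fibroblasts and resident macrophages. A whole hippocampus taken at dissection can therefore hold glial RNA, RNA of these coverings, or both. Some reaction genes, vimentin among them, are used by both kinds of cell.

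RNA was measured by CAGE, which reads the capped 5′ ends of transcripts, and levels are in CPM, a gene's reads set relative to all reads of its library. The infarcted PT 7 d LEV library held 19222979 reads and the non-infarcted one 17696949, within a range of 13382623 to 22377376 over the 11 libraries. Of the 22377 genes listed, 16057 had a mean of at least 1 CPM and were tested. Differences are infarcted minus non-infarcted on the log2(CPM + 1) scale, which understates the change of low genes. Ratios are of CPM, infarcted over non-infarcted, with exact binomial 95% intervals that cover counting error only and compare these 2 libraries, not the conditions. In whole tissue, fewer cells of a type and less RNA per cell cannot be told apart. Spp1, Foxc2, Col1a2, Col3a1, Ctss, Cx3cr1, Cd74, Cd3e, Foxp2 and Slc1a3 each overlap another listed gene, so their reads may be shared with it.

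The infarcted side was the higher side for most genes past a fold of 1.5. In PT 7 d LEV, 133 genes were higher by a fold of at least 2 on the infarcted side, which is 0.828% of the genes tested, and 0 genes were lower by that fold. At a fold of 1.5, 510 genes (3.18%) were higher and 32 (0.199%) were lower on the infarcted side. The median difference over all tested genes was 0.01. Of all tested genes 52.2% had a difference above 0, 15.8% had a ratio with a counting interval above 1 and 12% one with an interval below 1. Without LEV, in PT 7 d, 137 genes (0.853%) were higher by a fold of 2 and 12 (0.0747%) were lower, and at a fold of 1.5 these shares were 2.91% and 0.61%. Of the 133 genes, 20 were also higher by a fold of 2 in PT 7 d, which is 15% of the genes in PT 7 d LEV and 14.6% of those in PT 7 d. Of the 133, 64 lay at or below 0 in PT 7 d, where 40.6% of all tested genes did, and 9 were lower there on the infarcted side by a fold of 1.5. The infarcted PT 7 d LEV library had the highest level of the 11 libraries for 74 of the 133 genes, and for 7.78% of all tested genes. Those 133 were picked for being high in that library, so a high share follows in part from that choice. For list counts of this kind below, 7.78% is the share over all tested genes.

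The 133 genes were sorted by whether PT 7 d also had them higher by a fold of 1.5. It did for 26, of which 7 were in lists of glial or immune response genes, 2 in a list shared by reactive glia and connective tissue, 0 in lists of meninges or vessel wall, and 17 in no list. It did not for 107, of which 25 were in lists of meninges or vessel wall, 4 in glial or immune lists, 3 in the shared list, 4 in lists of other cells and 71 in none. All lists together had 417 tested members, among 16057 tested genes. The lists were chosen with earlier results of these data known, so these counts are no independent evidence of a tissue. The difference between PT 7 d LEV and PT 7 d rests on 1 pair each and had no test of its own, so their values are given side by side.

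**Figure D1:**
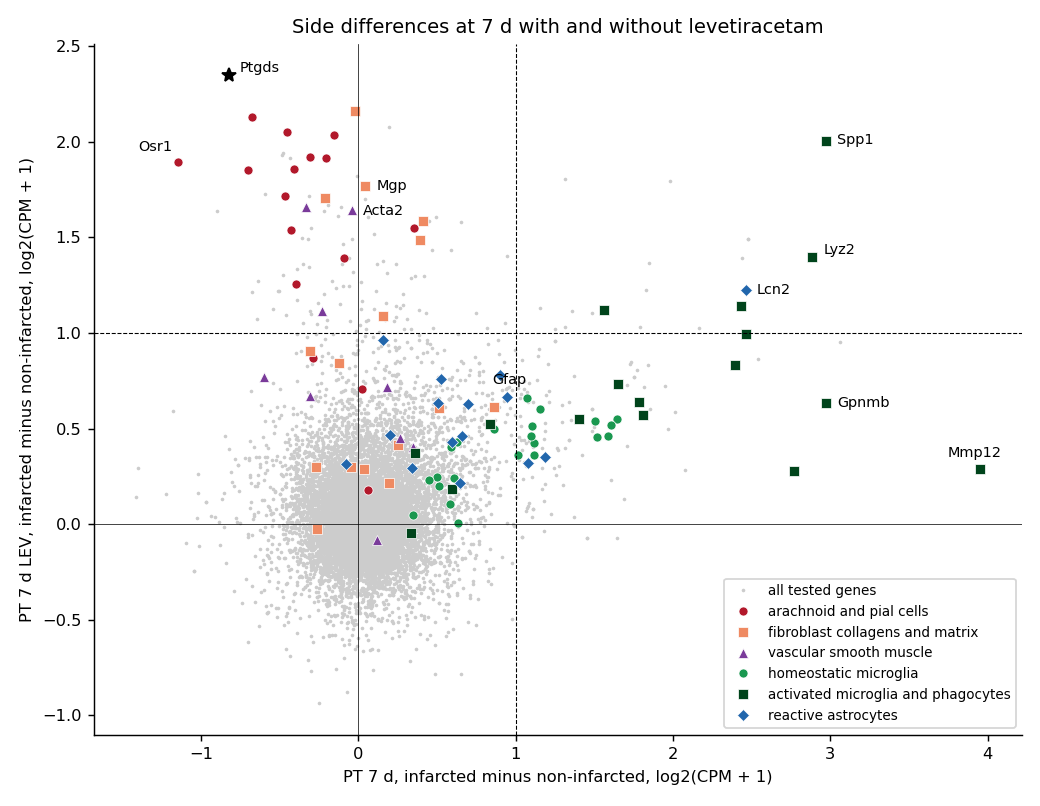
Each point is a tested gene, with its infarcted minus non-infarcted difference in PT 7 d LEV on the y axis and in PT 7 d on the x axis, both in log2(CPM + 1). Coloured points are members of 6 lists, the star is Ptgds and dashed lines mark a fold of 2; arachnoid and pial genes lie high on the y axis with PT 7 d values mostly below 0, while Spp1, Lyz2 and Gpnmb lie far to the right.

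The largest difference was that of Ptgds, the gene of lipocalin-type prostaglandin D synthase (chr2:25466709-25470046, GRCm38), which leptomeninges, choroid plexus and oligodendrocytes make. It stood at 7348 CPM on the infarcted side and 1443 CPM on the non-infarcted side, a ratio of 5.09 (5.02 to 5.16) and a log2 difference of 2.35. Over the other 10 libraries it ranged from 954.4 to 5181 CPM, with 1713 CPM in naive mice. The infarcted library was thus above each of the other 10, and the non-infarcted one lay near naive. The same difference was -0.82 in PT 7 d and -1.40 in PT 1 m, while it was 0.84 in PT 1 m LEV and above 1 in PT 2 m after withdrawal.

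Genes of arachnoid and pial cells were the list with the highest median. Of its 17 members 16 were tested, 15 of them were higher on the infarcted side by a fold of 1.5 and 13 by a fold of 2, against 3.18% and 0.828% of all genes. The median difference was 1.79, with members between 0.18 and 2.13, and it was -0.35 in PT 7 d. The infarcted library had the highest level of all 11 libraries for 14 of the 16. The summed level of the list was 446.7 CPM on the infarcted side and 170.8 CPM on the non-infarcted side, against 186.9 CPM in naive mice. Over the other 10 libraries the sum ranged from 92.1 to 372.3 CPM.

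Transporters of the arachnoid barrier were among its highest members. Slc22a6, an organic anion transporter (chr19:8618039-8628299), had 15.4 CPM on the infarcted side and 2.995 CPM on the non-infarcted side, a ratio of 5.14 (3.83 to 7.03) and a difference of 2.04. Slc6a13, a GABA and taurine transporter (chr6:121300227-121337733), had 32.3 CPM on the infarcted side and 8.19 CPM on the non-infarcted side, a difference of 1.85. Slc47a1, which exports organic cations, had 8.12 CPM on the infarcted side against 1.41 CPM on the non-infarcted side, a difference of 1.92. These 3 genes differed by -0.16, -0.70 and -0.21 in PT 7 d. The naive library had 3.86 CPM of Slc22a6, 14.6 CPM of Slc6a13 and 1.79 CPM of Slc47a1, so the non-infarcted side was under naive for each.

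Retinoid genes and transcription factors of the meninges followed the transporters. Aldh1a2, which makes retinoic acid (chr9:71215789-71296243), had 13.9 CPM on the infarcted side and 3.11 CPM on the non-infarcted side, a difference of 1.86. Crabp2, which carries retinoic acid to its receptors (chr3:87948666-87953376), had 18.7 CPM on the infarcted side and 3.50 CPM on the non-infarcted side, a difference of 2.13. Both had their highest level of the 11 libraries in the infarcted PT 7 d LEV sample. The forkhead factor Foxc2 had 13.1 CPM on the infarcted side and 2.71 CPM on the non-infarcted side, and the zinc finger factor Osr1 had 10.5 CPM on the infarcted side against 2.09 CPM on the non-infarcted side. Their differences were 1.92 and 1.90, set beside -0.31 and -1.15 in PT 7 d. Ranbp3l differed by 2.05 in PT 7 d LEV and by -0.45 in PT 7 d.

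Fibroblast collagens and matrix genes were higher too, though less evenly. Of 16 tested members 10 were higher on the infarcted side by a fold of 1.5 and 6 by a fold of 2. Over all tested genes these shares were 3.18% and 0.828%. The median was 0.73 in PT 7 d LEV and 0.04 in PT 7 d. Fmod, the collagen-binding proteoglycan fibromodulin, had 30.8 CPM on the infarcted side and 6.10 CPM on the non-infarcted side, a ratio of 5.05 (4.10 to 6.25). Mgp, an inhibitor of calcification that vessel walls make, had 238.8 CPM on the infarcted side and 69.5 CPM on the non-infarcted side, a difference of 1.77. Col1a1, a chain of type I collagen (chr11:94936224-94953042), had 26.2 CPM on the infarcted side and 8.70 CPM on the non-infarcted side, a difference of 1.49. The other type I chain, Col1a2, differed by 1.70 and the type III chain Col3a1 by 1.58. Not every matrix gene differed by as much. The small proteoglycan gene Dcn had 80.2 CPM on the infarcted side and 65.1 CPM on the non-infarcted side, a ratio of 1.23, and Lum had 3.64 CPM on the infarcted side against 3.73 CPM on the non-infarcted side, a ratio of 0.976 (0.688 to 1.39). Outside the lists, Aebp1 and Prg4, both of connective tissue, differed by 1.93 and 1.92.

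Of the vessel wall, smooth muscle genes stood out more than pericyte or endothelial genes. Among smooth muscle genes 6 of 9 tested were higher by a fold of 1.5 and 3 by a fold of 2. Over all tested genes these shares were 3.18% and 0.828%. For 7 of the 9 the infarcted library had the highest level of all 11. Acta2, smooth muscle actin (chr19:34241090-34255590), had 33.2 CPM on the infarcted side and 9.95 CPM on the non-infarcted side, a ratio of 3.34 (2.83 to 3.97) and a difference of 1.65. Tagln, an actin-binding protein of the same cells, had 14.98 CPM on the infarcted side and 4.07 CPM on the non-infarcted side, a difference of 1.66. Myh11, their myosin heavy chain, had 10.98 CPM on the infarcted side against 4.52 CPM on the non-infarcted side, a difference of 1.12. Without LEV at 7 d these genes differed by -0.04, -0.33 and -0.23. Mylk did not follow, with 2.34 CPM on the infarcted side and 2.54 CPM on the non-infarcted side.

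Pericytes, which wrap capillaries, gave a median of 0.41 over 11 genes, 4 of them past a fold of 1.5. On the infarcted side, 3.18% of all tested genes were higher by that fold. Their defining potassium channel Kcnj8 had 1.14 CPM on the infarcted side and 1.53 CPM on the non-infarcted side, and Rgs5 had 59.6 CPM on the infarcted side against 58.2 CPM on the non-infarcted side, a ratio of 1.03 (0.942 to 1.12). Past a fold of 2 were Vtn, vitronectin, with 87.3 CPM on the infarcted side and 41.1 CPM on the non-infarcted side, and the aminopeptidase gene Anpep, with 4.01 CPM on the infarcted side and 1.47 CPM on the non-infarcted side. Endothelial genes had a median of 0.40 over 17, 4 of them past a fold of 1.5. Cldn5, the tight junction claudin of brain capillaries, had 42.8 CPM on the infarcted side and 32.9 CPM on the non-infarcted side, a ratio of 1.30 (1.17 to 1.45). Cdh5, the junctional cadherin of endothelium, had 11.4 CPM on the infarcted side against 4.69 CPM on the non-infarcted side, a difference of 1.12. Basement membrane genes had a median of 0.46, with 4 of 12 past a fold of 1.5, and 0 of 9 TGF-beta signalling genes passed that fold.

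Across the other conditions the meningeal sums did not keep to 1 side. The arachnoid and pial sum in PT 7 d was 150.7 CPM on the infarcted side and 172.4 CPM on the non-infarcted side. In PT 1 m it was 110.0 CPM on the infarcted side against 239.3 CPM on the non-infarcted side, and in PT 1 m LEV it was 185.8 CPM on the infarcted side against 92.1 CPM on the non-infarcted side. In PT 2 m after withdrawal it was 372.3 CPM on the infarcted side against 176.3 CPM on the non-infarcted side. The non-infarcted side was thus the higher one in PT 7 d and PT 1 m, and the infarcted side in PT 1 m LEV and PT 2 m after withdrawal. The ratios of sums in those last conditions were 2.02 and 2.11, under the 2.62 (2.51 to 2.73) of PT 7 d LEV. How much of this reflects what was dissected was not tested.

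**Figure D2:**
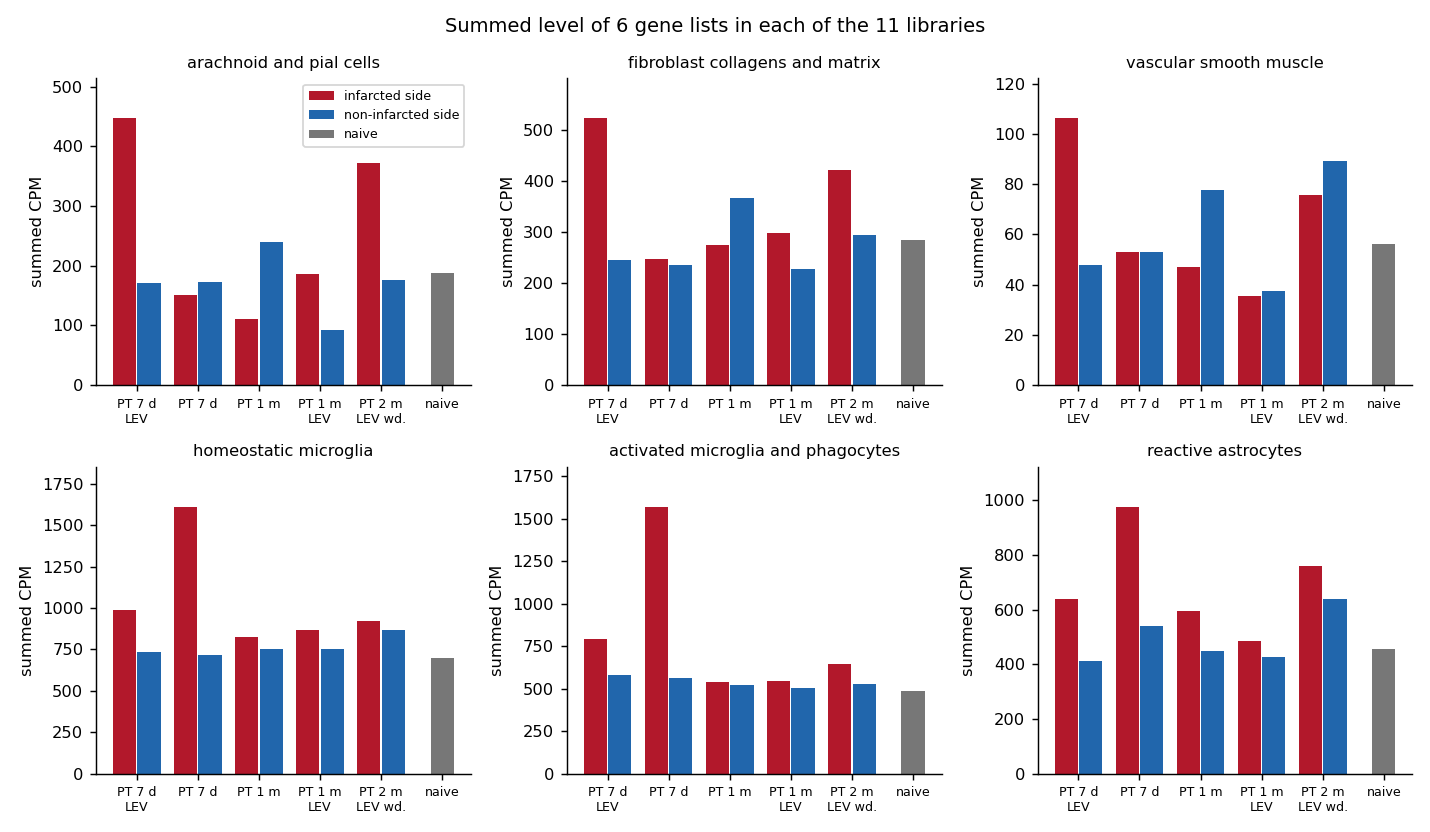
Bars are the summed CPM of the members of 6 gene lists in each library, with the infarcted side left of the non-infarcted side in each of the 5 PT conditions and the naive library at the right. The infarcted PT 7 d LEV library is the tallest of the 11 for the 3 meningeal and vessel wall lists, and the infarcted PT 7 d library for the 3 glial lists.

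Homeostatic microglia genes were higher on the infarcted side by small amounts. Of 22 tested members, 22 had a difference above 0 and 18 had a counting interval above 1, against 52.2% and 15.8% of all tested genes. Yet 2 passed a fold of 1.5 and 0 a fold of 2, against 3.18% and 0.828% of all tested genes. The median was 0.43 in PT 7 d LEV and 1.04 in PT 7 d, where 17 passed a fold of 1.5, against 2.91% of all tested genes. Their sum was 990.5 CPM on the infarcted side and 734.1 CPM on the non-infarcted side, against 698.7 CPM in naive mice, a ratio of sides of 1.35 (1.32 to 1.38). The PT 7 d sum was 1609 CPM on the infarcted side and 714 CPM on the non-infarcted side.

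Markers that define resting microglia each differed by less than a fold of 1.5. P2ry12, the purinergic receptor of ramified microglia, had 22.8 CPM on the infarcted side and 19.7 CPM on the non-infarcted side, a ratio of 1.16 (1.00 to 1.34). Cx3cr1, the fractalkine receptor, had 23.9 CPM on the infarcted side against 20.1 CPM on the non-infarcted side, a ratio of 1.19 (1.04 to 1.37). Tmem119 had 16.2 CPM on the infarcted side and 11.8 CPM on the non-infarcted side, while naive hippocampus had 16.9 CPM. Csf1r, the receptor microglia need to survive, had 70.2 CPM on the infarcted side against 52.8 CPM on the non-infarcted side, a ratio of 1.33 (1.22 to 1.45). Olfml3 had the largest difference of the list, with 12.6 CPM on the infarcted side and 7.63 CPM on the non-infarcted side. Its ratio was 1.66 (1.34 to 2.06). C1qa and Ctss, both linked to phagocytosis, were also picked for large differences, and the intervals of C1qa and Tmem119 overlap. C1qa, a chain of the complement starter C1q (chr4:136895917-136898803), had 101.4 CPM on the infarcted side and 68.9 CPM on the non-infarcted side, a ratio of 1.47 (1.37 to 1.58). The protease gene Ctss had 61.5 CPM on the infarcted side against 40.1 CPM on the non-infarcted side, a ratio of 1.53 (1.40 to 1.69).

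Genes of activated microglia and phagocytes were higher by more, and still by less than without LEV. Of 17 tested members 9 were higher by a fold of 1.5 and 4 by a fold of 2, against 3.18% and 0.828% of all tested genes. PT 7 d had 15 and 13 past these folds, against 2.91% and 0.853% of all tested genes. The median was 0.63 in PT 7 d LEV and 1.81 in PT 7 d. Spp1, the secreted phosphoprotein osteopontin (chr5:104435118-104441050), had 13.7 CPM on the infarcted side and 2.66 CPM on the non-infarcted side, a ratio of 5.15 (3.77 to 7.19). Without LEV, at 7 d, Spp1 had 48.0 CPM on the infarcted side and 5.23 CPM on the non-infarcted side. Lyz2, the lysozyme of myeloid cells (chr10:117277331-117282321), had 26.0 CPM on the infarcted side and 9.27 CPM on the non-infarcted side, a difference of 1.40 set beside 2.89 in PT 7 d.

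Among other phagocyte genes, some differed beyond counting error and some did not. Trem2, a lipid-sensing receptor of phagocytes (chr17:48346401-48354147), had 17.2 CPM on the infarcted side and 9.95 CPM on the non-infarcted side, a ratio of 1.73 (1.43 to 2.09). Cd68, of their lysosomes, had 17.2 CPM on the infarcted side against 9.21 CPM on the non-infarcted side, a ratio of 1.86 (1.54 to 2.26). Gpnmb, a glycoprotein of phagocytic cells, had 7.39 CPM on the infarcted side against 4.41 CPM on the non-infarcted side, a ratio of 1.68 (1.26 to 2.24). Clec7a, the beta-glucan receptor, was lower in level, with 2.71 CPM on the infarcted side and 0.678 CPM on the non-infarcted side. Lgals3, galectin 3, had 7.13 CPM on the infarcted side and 5.71 CPM on the non-infarcted side, a ratio of 1.25 (0.959 to 1.63), where PT 7 d had 40.7 CPM on the infarcted side against 5.11 CPM on the non-infarcted side. Fabp5 had 189.9 CPM on the infarcted side against 196.1 CPM on the non-infarcted side. Among members below the level tested, Cst7 had 30 reads on the infarcted side and 1 read on the non-infarcted side, a ratio of 27.6 with a counting interval of 4.59 to 1127.

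**Figure D3:**
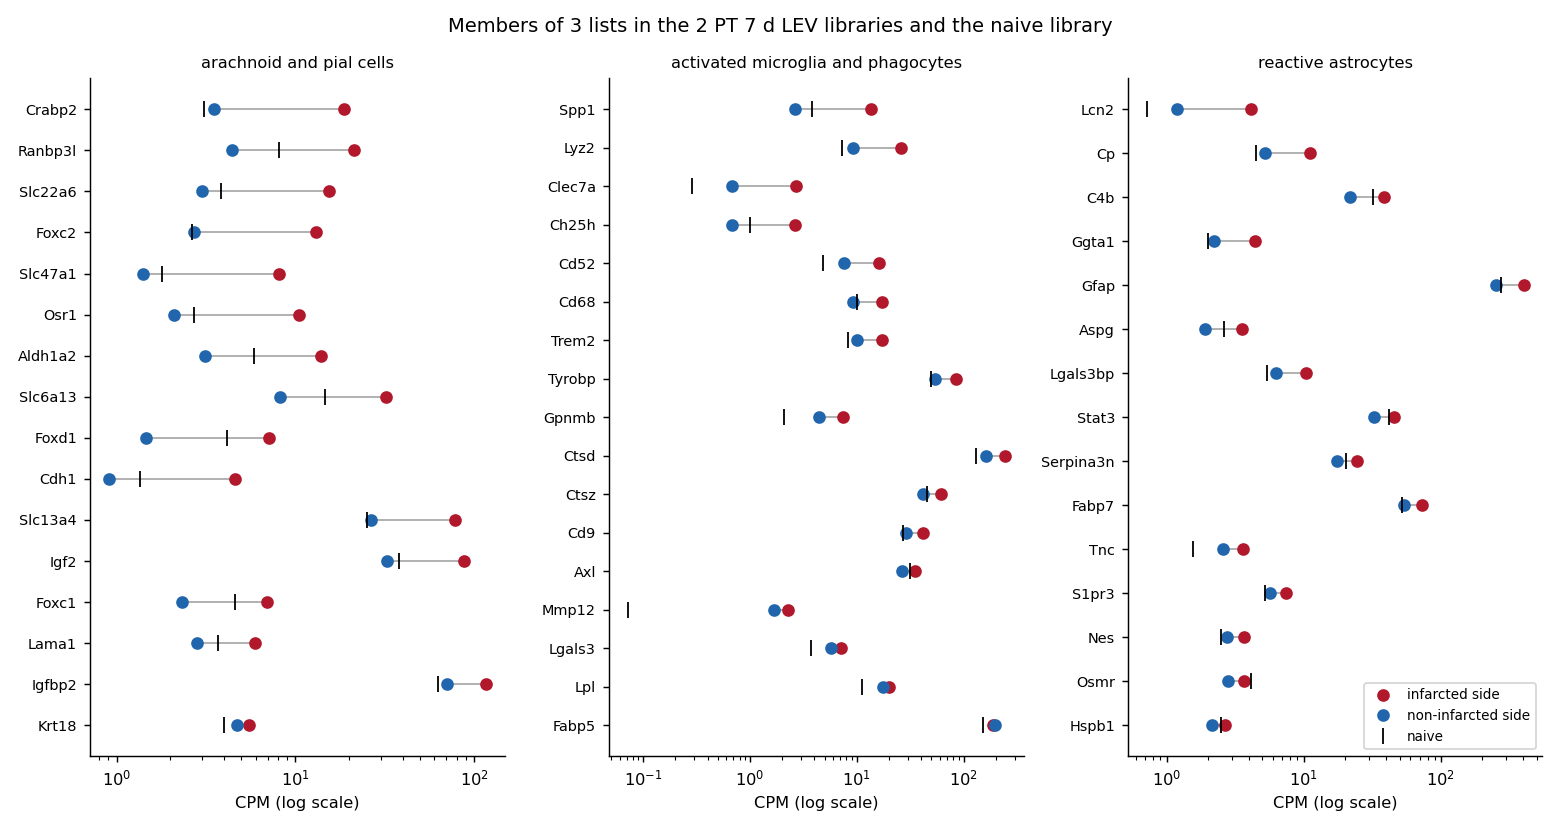
Each row is a tested member of the arachnoid and pial, activated microglia and reactive astrocyte lists, with its CPM on a log axis on the infarcted side (red) and the non-infarcted side (blue) of PT 7 d LEV and in naive mice (black tick). Lines are longest for arachnoid and pial genes such as Crabp2 (18.7 CPM on the infarcted side against 3.50 CPM on the non-infarcted side) and short for most astrocyte genes.

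Reactive astrocyte genes were higher with a median of 0.47 over 15 tested members, and 0.65 in PT 7 d. All 15 had a difference above 0, 7 passed a fold of 1.5 and 1 a fold of 2. Over all tested genes these shares were 52.2%, 3.18% and 0.828%. Gfap, the astrocyte filament (chr11:102887336-102900912), had 401.4 CPM on the infarcted side and 252.9 CPM on the non-infarcted side, a ratio of 1.59 (1.53 to 1.65) and a difference of 0.66. The naive library had 276.9 CPM, and PT 7 d had 678 CPM on the infarcted side and 351.9 CPM on the other. Lcn2, lipocalin 2, which binds iron-carrying siderophores, had 4.11 CPM on the infarcted side and 1.19 CPM on the non-infarcted side, a difference of 1.22 set beside 2.46 in PT 7 d. C4b, a complement component, had 38.3 CPM on the infarcted side against 21.9 CPM on the non-infarcted side, a ratio of 1.75 (1.55 to 1.99). Cp, the copper protein ceruloplasmin, had 11.2 CPM on the infarcted side and 5.26 CPM on the non-infarcted side, a difference of 0.96 where PT 7 d had 0.16. Genes of the astrocytes' housekeeping differed by less, with a median of 0.09 and 0 of 17 past a fold of 1.5. Of the 17, 14 had a difference above 0 and 9 a counting interval above 1, against 52.2% and 15.8% of all tested genes. Gjb6 differed by most, with 51.4 CPM on the infarcted side and 36.3 CPM on the non-infarcted side, a ratio of 1.42 (1.28 to 1.57). The water channel Aqp4 had 40.3 CPM on the infarcted side against 35.7 CPM on the non-infarcted side, and the glutamate transporter Slc1a3 had 333.2 CPM on the infarcted side against 291.3 CPM on the non-infarcted side.

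Genes used by both reactive glia and connective tissue were higher with a median of 0.60 over 20 tested members, and 0.48 in PT 7 d. Of the 20, 10 passed a fold of 1.5 and 5 a fold of 2, against 3.18% and 0.828% of all tested genes. Vim, vimentin (chr2:13573927-13582826), had 54.0 CPM on the infarcted side and 24.6 CPM on the non-infarcted side, a difference of 1.10 set beside 1.49 in PT 7 d. Ifitm3, an interferon-induced membrane protein, had 64.8 CPM on the infarcted side against 30.7 CPM on the non-infarcted side, a difference of 1.05 set beside 0.93. Anxa2 and Serping1 differed by 1.43 and 1.29 in PT 7 d LEV, and by 0.47 and 0.33 in PT 7 d. Anxa2, a membrane-binding annexin, had 22.2 CPM on the infarcted side and 7.57 CPM on the non-infarcted side. Serping1, the inhibitor of complement C1, had 14.3 CPM on the infarcted side against 5.26 CPM on the non-infarcted side. Which cells carried these differences was not tested. The arachnoid and pial sum beside them was 446.7 CPM on the infarcted side and 170.8 CPM on the non-infarcted side.

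Glial and meningeal sums can be set side by side over the 5 pairs. In PT 7 d LEV the ratio of sums, of the infarcted over the non-infarcted side, was 2.62 for arachnoid and pial genes, 1.36 for activated microglia and 1.55 for reactive astrocytes. The PT 7 d ratios were 0.874, 2.79 and 1.81 for these lists. In PT 2 m after withdrawal it was 2.11, 1.22 and 1.19, and in PT 1 m it was 0.46, 1.04 and 1.33. In PT 1 m LEV it was 2.02, 1.08 and 1.14. PT 7 d, the pair with the highest glial ratios, thus had a meningeal ratio under 1.

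**Figure D4:**
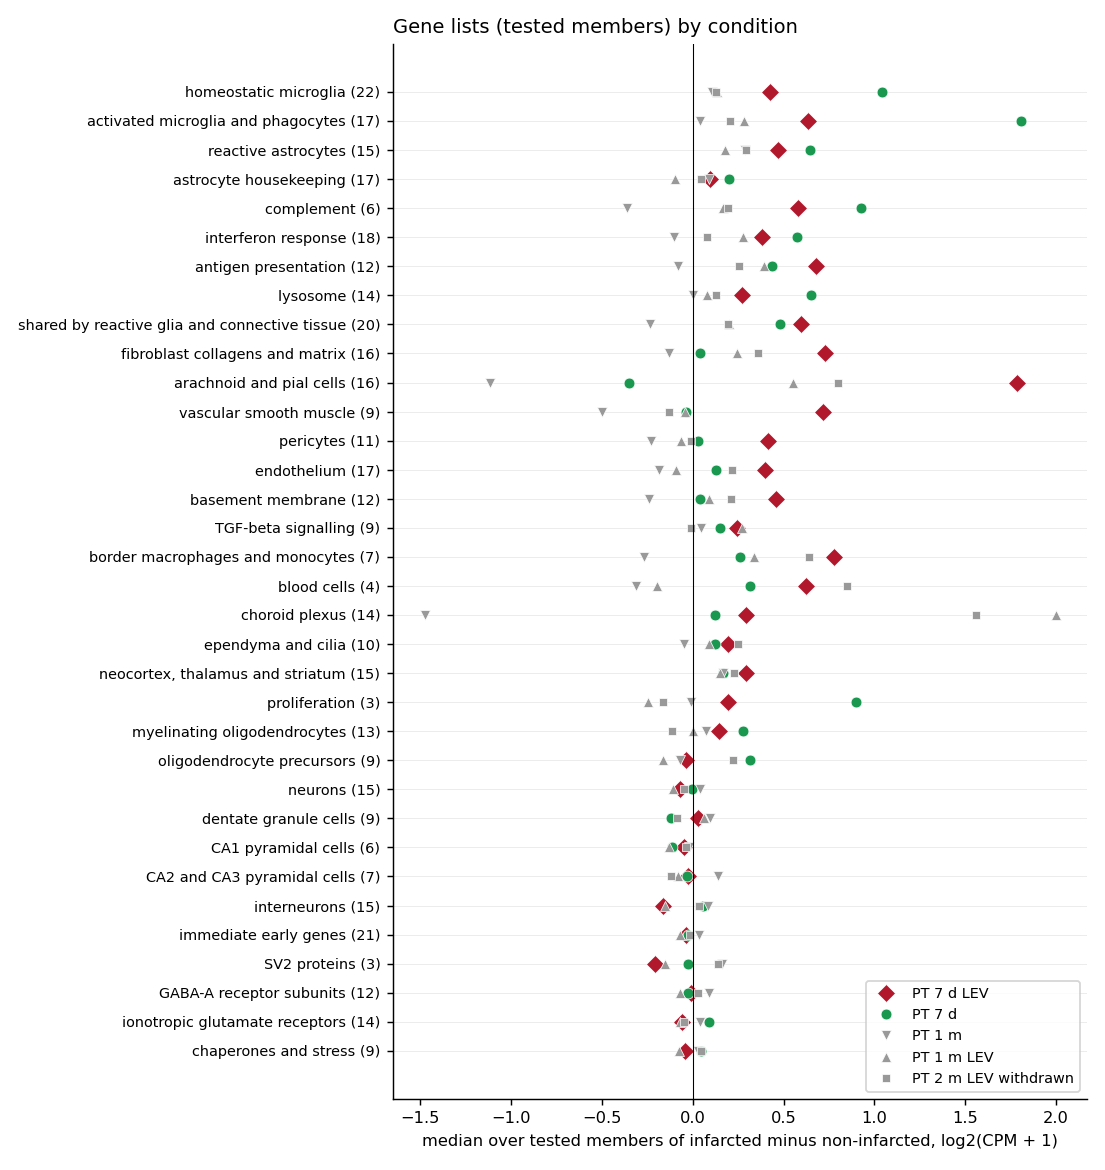
Points are the median infarcted minus non-infarcted difference, in log2(CPM + 1), over the tested members of each of 34 gene lists (number in brackets), with a red diamond for PT 7 d LEV, a green circle for PT 7 d and grey markers for the later conditions. The arachnoid and pial list is at 1.79 in PT 7 d LEV and -0.35 in PT 7 d, and the activated microglia list at 0.63 and 1.81.

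Among further complement genes, the receptor C3ar1 had 2.97 CPM on the infarcted side against 1.41 CPM on the non-infarcted side, and the integrin chain Itgb2 had 6.24 CPM on the infarcted side against 3.05 CPM on the non-infarcted side, differences of 0.72 and 0.84. Those 2 genes differed by 1.82 and 1.73 in PT 7 d. Lysosomal genes had a median of 0.27 with 1 of 14 past a fold of 1.5, against 3.18% of all tested genes. That gene was Ctsh, with 30.0 CPM on the infarcted side and 15.5 CPM on the non-infarcted side.

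Interferon response genes were higher with a median of 0.38 over 18 tested members, and 0.58 in PT 7 d. All 18 had a difference above 0, 7 passed a fold of 1.5 and 2 a fold of 2. Over all tested genes these shares were 52.2%, 3.18% and 0.828%. Ifi27l2a, an interferon-induced gene of myeloid and other cells, had 49.1 CPM on the infarcted side and 13.5 CPM on the non-infarcted side, a ratio of 3.65 (3.16 to 4.22). Its difference was 1.79, set beside 1.98 in PT 7 d. Ifit3, which has a near-identical copy and is therefore uncertain, had 7.08 CPM on the infarcted side against 2.71 CPM on the non-infarcted side, and Irf7, a transcription factor of the pathway, had 7.91 CPM on the infarcted side against 3.56 CPM on the non-infarcted side. Bst2, tetherin, had 11.9 CPM on the infarcted side and 5.99 CPM on the non-infarcted side, a ratio of 1.98 (1.57 to 2.52). Isg15, a ubiquitin-like protein, had 12.8 CPM on the infarcted side against 6.67 CPM on the non-infarcted side, and the GTPase Gbp3 had 3.69 CPM on the infarcted side against 2.09 CPM on the non-infarcted side, a ratio of 1.77 (1.17 to 2.70).

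Promoters of the interferon list were read from RefSeq (GRCm38.p6), taking 250 bases before the start, because members of this list differed in the same direction. The interferon-stimulated response element was searched as GAAANNGAAA and its reverse complement TTTCNNTTTC, so both strands are covered and repeats may overlap. It was found for 9 of the 16 members with a promoter in the table, or 56.2%, and for 3.46% of all 27025 genes there. The list was made of interferon response genes, so a high share follows from that choice and is no evidence about the side difference. Ifi27l2a and Irf7 were not among the 9. None of 16 reactive astrocyte genes held it, and 2 of 11 arachnoid and pial genes did. The promoters of Isg15 (chr4:156200819-156201068, minus strand), Bst2 (chr8:71537473-71537722, minus strand) and Gbp3 (chr3:142559794-142560043, plus strand) are shown 5′ to 3′ with the matched letters in capitals, as 3 genes higher on the infarcted side by a fold of 1.5.
Isg15: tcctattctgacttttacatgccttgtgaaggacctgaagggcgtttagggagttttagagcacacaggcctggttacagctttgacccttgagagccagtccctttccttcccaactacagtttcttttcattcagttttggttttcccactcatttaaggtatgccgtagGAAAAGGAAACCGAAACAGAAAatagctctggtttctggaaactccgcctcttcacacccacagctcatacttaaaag
Bst2: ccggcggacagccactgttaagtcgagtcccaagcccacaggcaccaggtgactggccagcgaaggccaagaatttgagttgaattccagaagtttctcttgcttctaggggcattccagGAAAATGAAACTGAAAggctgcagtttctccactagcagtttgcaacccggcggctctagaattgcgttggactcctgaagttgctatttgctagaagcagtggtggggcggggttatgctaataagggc
Gbp3: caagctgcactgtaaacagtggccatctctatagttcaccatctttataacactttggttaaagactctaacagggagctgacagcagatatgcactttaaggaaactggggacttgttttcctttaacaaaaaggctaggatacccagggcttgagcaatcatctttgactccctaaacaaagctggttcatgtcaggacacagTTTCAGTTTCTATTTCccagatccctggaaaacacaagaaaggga
Isg15 held 3 overlapping matches starting 78 to 66 bases before the start, Bst2 held 2 from 130 to 124 bases before it, and Gbp3 held 2 from 45 to 39 bases before it. The table has 2 promoters for Gbp3, and the one shown is the 1 with a match. A match describes these letters only and shows no bound factor.

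The class I genes H2-K1 and H2-D1 and their shared light chain gene B2m were higher on the infarcted side in both 7 d pairs. H2-K1 had 66.4 CPM on the infarcted side and 40.1 CPM on the non-infarcted side, H2-D1 had 96.8 CPM on the infarcted side against 57.1 CPM on the non-infarcted side, and B2m had 98.5 CPM on the infarcted side against 63.0 CPM on the non-infarcted side. Their differences were 0.71, 0.75 and 0.64, set beside 1.01, 1.14 and 1.11 in PT 7 d. Another class I gene, H2-Q1, differed by 1.64 in PT 7 d LEV and by -0.22 in PT 7 d. Near-identical class I genes can share reads, so single values of H2-K1, H2-D1 and H2-Q1 are uncertain. Class II genes, which few cells of the brain express at rest, differed by more in PT 7 d LEV than in PT 7 d. H2-Ab1 (chr17:34257689-34269419) had 9.10 CPM on the infarcted side and 2.37 CPM on the non-infarcted side, a difference of 1.58 set beside 0.65. Cd74, the chaperone of class II, had 10.2 CPM on the infarcted side against 3.50 CPM on the non-infarcted side, a difference of 1.31 set beside 0.18. H2-Aa and H2-Eb1 differed by 1.07 and 0.89, set beside 0.17 and -0.29 in PT 7 d.

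Genes of macrophages of the meninges and perivascular spaces, which carry class II proteins, were higher as well, in a list that also holds monocyte genes. Of 14 members 7 were tested, and 6 of them were higher by a fold of 1.5 and 2 by a fold of 2. Over all tested genes these shares were 3.18% and 0.828%. The median was 0.78 in PT 7 d LEV and 0.26 in PT 7 d. The difference was larger in PT 7 d LEV than in PT 7 d for 5 of the 7. Stab1 was not among them, at 0.78 in PT 7 d LEV and 1.37 in PT 7 d. Mrc1, the mannose receptor of these macrophages, had 4.58 CPM on the infarcted side and 2.32 CPM on the non-infarcted side. Cd163, a haemoglobin scavenger receptor, had 3.23 CPM on the infarcted side against 1.58 CPM on the non-infarcted side, Pf4 had 5.05 CPM on the infarcted side against 2.03 CPM on the non-infarcted side, and F13a1 had 6.87 CPM on the infarcted side against 2.77 CPM on the non-infarcted side. Lyve1 was under the level tested, with 0.936 CPM on the infarcted side and 0.339 CPM on the non-infarcted side. The sum over the 14 members was 34.1 CPM on the infarcted side and 15.03 CPM on the non-infarcted side, where PT 7 d had 30.6 CPM on the infarcted side against 14.6 CPM on the non-infarcted side.

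Blood and lymphocyte markers were low. Of the T and NK cell genes 0 reached the level tested, and Cd3e and Cd3g stood at 0.104 and 0.208 CPM on the infarcted side and at 0 and 0.113 CPM on the non-infarcted side. A count of 0 in the non-infarcted library allows up to 3 reads. The summed blood cell genes had 30.5 CPM on the infarcted side and 16.7 CPM on the non-infarcted side, both under the 113.6 CPM of naive mice. S100a9, of neutrophils, had 4.79 CPM on the infarcted side against 1.70 CPM on the non-infarcted side, and the globin Hbb-bs had 15.1 CPM on the infarcted side against 8.65 CPM on the non-infarcted side. Globin copies are near-identical, so that gene's own value is uncertain.

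Neighbouring tissues differed less between sides than the meninges. Choroid plexus genes had a median of 0.29 with 0 of 14 past a fold of 1.5, and 8 of the 14 had a counting interval above 1. Their sum was 4906 CPM on the infarcted side and 3997 CPM on the non-infarcted side, a ratio of 1.23 (1.22 to 1.24). The infarcted sum was the highest of the 11 libraries, followed by the 4232 CPM of naive mice. For 7 of the 14 the infarcted library had the highest level of all 11. Ttr, transthyretin, the main product of that epithelium, had 4652 CPM on the infarcted side and 3781 CPM on the non-infarcted side. Over the other libraries the choroid plexus sum went down to 60.5 CPM, so both PT 7 d LEV libraries had a high level. Ependymal genes had a median of 0.20 with 0 of 10 past a fold of 1.5. Genes of neocortex, thalamus and striatum had a median of 0.29. Their sum was 354.1 CPM on the infarcted side, also the highest of the 11 libraries, and 326.2 CPM on the non-infarcted side. Against 3.18% of all tested genes, 3 of 15 passed a fold of 1.5. Among those were Foxp2 with 4.94 CPM on the infarcted side and 1.53 CPM on the non-infarcted side, and Adora2a with 2.81 CPM on the infarcted side against 1.24 CPM on the non-infarcted side. The cortical factor Rorb was lower on the infarcted side, with 22.3 CPM there and 29.2 CPM on the non-infarcted side. Myelin genes had a median of 0.15 and oligodendrocyte precursor genes one of -0.04, with 0 past a fold of 1.5 in either list.

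Neuronal genes were nearly even, with general neuron and interneuron genes both leaning to the non-infarcted side, those of interneurons by more. Neuron genes had a median of -0.07 over 15, and a sum of 10912 CPM on the infarcted side and 11467 CPM on the non-infarcted side. Of these 15 neuron genes, 12 had a difference below 0 and 9 a counting interval below 1. Dentate granule, CA1 and CA2 with CA3 genes had medians of 0.03, -0.05 and -0.03. Of 15 interneuron genes, 14 had a difference below 0 and 8 a counting interval below 1, against 47.7% and 12% of all tested genes, with 0 past a fold of 1.5. The interneuron median was -0.17 in PT 7 d LEV and 0.06 in PT 7 d. It was -0.15 in PT 1 m LEV, 0.08 in PT 1 m and 0.03 in PT 2 m after withdrawal. The interneuron sum was 1472 CPM on the infarcted side and 1745 CPM on the non-infarcted side, where naive mice had 1741 CPM. The PT 7 d sum was 1546 CPM on the infarcted side and 1474 CPM on the non-infarcted side, so both sides lay under naive mice there.

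The peptide genes led this list. Cck, cholecystokinin, which pyramidal cells also make (chr9:121489824-121495694), had 344.4 CPM on the infarcted side and 442.2 CPM on the non-infarcted side, a ratio of 0.779 (0.754 to 0.805). Sst, somatostatin (chr16:23889573-23890958), had 426.9 CPM on the infarcted side and 524.6 CPM on the non-infarcted side, a ratio of 0.814 (0.790 to 0.838). Vip, vasoactive intestinal peptide, had 4.42 CPM on the infarcted side against 6.67 CPM on the non-infarcted side, a ratio of 0.663 (0.496 to 0.884). Pvalb, the calcium buffer of fast-spiking cells, had 54.5 CPM on the infarcted side against 65.6 CPM on the non-infarcted side, a ratio of 0.831 (0.764 to 0.904). Calb2, calretinin, had 83.8 CPM on the infarcted side against 83.3 CPM on the non-infarcted side. Of these 5 genes, Cck and Vip were at their lowest of the 11 libraries in the infarcted PT 7 d LEV sample. Vip was low in PT 7 d as well, with 5.49 CPM on the infarcted side and 5.67 CPM on the non-infarcted side. Naive mice had 12.9 CPM of Vip, above both sides of either 7 d pair.

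Genes of the drug's target and of inhibition stayed within small limits. Sv2a, which LEV binds (chr3:96181151-96195521), had 137.4 CPM on the infarcted side and 134.9 CPM on the non-infarcted side, a ratio of 1.02 (0.963 to 1.08). Sv2b, a second vesicle protein of that family, had 299.4 CPM on the infarcted side against 348.6 CPM on the non-infarcted side, a ratio of 0.859 (0.828 to 0.890). Of 12 GABA-A receptor subunits 0 passed a fold of 1.5, with a median of -0.01. Ionotropic glutamate receptor genes had a median of -0.06 and immediate early genes, which neuronal activity induces, a median of -0.04, with 0 of 14 and 0 of 21 past a fold of 1.5.

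**Figure D5:**
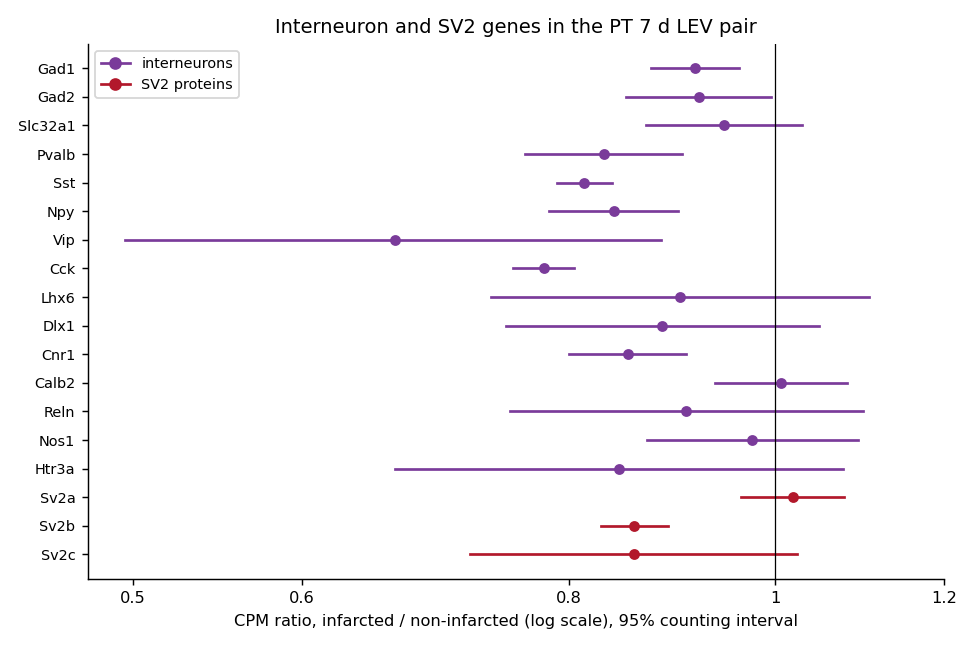
Points are the ratios of CPM, infarcted over non-infarcted, in PT 7 d LEV on a log axis for interneuron genes and SV2 genes, with 95% counting intervals as lines. Most interneuron genes lie left of 1, with Vip at 0.663 and Cck at 0.779, and Sv2a sits on 1.02.

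Of the tested genes, 0 were lower on the infarcted side by a fold of 2. Among those with a mean of at least 5 CPM over the pair, Pnoc differed by most, the gene of the opioid-related peptide precursor prepronociceptin (chr14:65400673-65425472), with 4.16 CPM on the infarcted side and 7.18 CPM on the non-infarcted side. Its ratio was 0.58 (0.433 to 0.773) and its difference -0.66, set beside 0.03 in PT 7 d. Slc17a6, the vesicular glutamate transporter of subcortical neurons, had 6.14 CPM on the infarcted side and 9.21 CPM on the non-infarcted side, a difference of -0.52. Abcb1b, a drug efflux pump, had 4.58 CPM on the infarcted side against 6.95 CPM on the non-infarcted side, a difference of -0.51 where PT 7 d had 0.70. The other 8 that were lower by most, besides Vip, differed by -0.48 to -0.52 and included Mettl18, Pdgfc and Rad51c. All 12 rested on low levels, of at most 17.7 CPM on either side.

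With 1 library a side, these pairs could be tested only against the spread of side differences in the other conditions. A limma fit over the 10 PT libraries, with a block for condition and separate side terms for PT 7 d LEV and for the other 4 pairs, had 3 residual degrees of freedom and a prior of 7.81. It called 0 genes between the PT 7 d LEV sides at an adjusted p of 0.05 (0% of 16057), and 0 for the side difference in PT 7 d LEV minus that of the other 4 conditions (0%). Without adjustment, 727 genes had a p under 0.05 between the sides, 631 of them higher on the infarcted side, and 500 for the second contrast. edgeR's quasi-likelihood test on the recovered reads called 0 and 0, with 780 and 548 at an unadjusted p under 0.05, while DESeq2 called 1 gene in each, Acta2, with an adjusted p of 0.0101 between the sides; over all alternatives the smallest adjusted p between the sides ranged from 0.00918 to 1. In limma, Acta2 had the smallest p of both contrasts, with a side difference of 1.65 (SE 0.26) and 1.99 (SE 0.29) above the other 4 conditions, at adjusted p-values of 0.408 and 0.423. Without the PT 1 m pair, limma called 24 genes between the sides, 24 of them higher on the infarcted side, with Acta2, Mgp, Fmod, Slc22a6, Col1a1 and H2-Ab1 among them.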

How the data were processed

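The authors deposited 1 table of CPM values for 22377 genes in 11 libraries, and per the labels' protocols total RNA of whole hippocampus was cap-trapped and made into random-primed CAGE libraries. The build GRCm38 and the tools HISAT2 2.0.5, BWA 0.7.17 and DESeq2 1.20.0 are named, per the submitters' processing notes; what each did, and how reads were assigned to genes, is not stated in the sources used here. Of the deposited CPM values, 100.0% came out as whole reads of the library total within 0.0001, and these reads gave the totals and counting intervals. Exact binomial intervals (95%) cover counting error only, since reads without molecular identifiers are not independent molecules, and a count of 0 allows up to 3 reads. Coordinates are those of GENCODE M21 (22335 identifiers matched). 1136 genes had the same reads as another gene in every library, so such genes cannot be separated.

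Genes with a mean of at least 1 CPM over 11 libraries (16057) were compared as log2(CPM + 1). With 1 library a side, genes were counted past folds of 2 and 1.5. limma 3.58.1 (trend, Benjamini-Hochberg adjustment, threshold 0.05) took its spread from the other 4 pairs and assumes that the PT 7 d LEV libraries vary like the others. It was run on simulated counts with a common dispersion for all genes and no side difference in the other 4 pairs. That simulation does not cover side differences that vary between conditions. edgeR 4.0.16 and DESeq2 1.42.0 on the recovered reads were alternatives (R 4.3.3, Python 3.11, pandas, scipy, matplotlib). The 35 lists held 472 members, 468 in the table and 417 tested; the T and NK cell list had 0 tested. The lists, members and tests were chosen with earlier results of these data known, so they are no independent evidence of a direction.

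Named genes were up to 12 a direction with the largest difference among those with a mean of at least 5 CPM over the pair. Up to 4 members a list in its prevailing direction and 2 in the other were added, with genes called by limma and the markers of each cell type. Unnamed and clone-named genes and those sharing all reads were left out of the genes with the largest difference only. The T cell marker Cd3e has the same reads as another gene in every library. Isg15, Gbp3, H2-K1, H2-D1, B2m, H2-Q1 and Cst7 were named after their values were seen. Some genes that this rule takes are not reported here. No set test was run.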

Additional observations from a re-analysis of the deposited data

Results flagged for a closer look

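The sign of the side difference was opposite in PT 7 d LEV and PT 7 d for 49.5% of tested genes, 89 of 222 named genes and 7 of 34 list medians. Given here are the 5 named genes past a fold of 1.5 in both pairs, and the 2 lists whose median was past that fold in PT 7 d LEV and below 0 in PT 7 d. There was 1 pair each, so the difference between conditions was not tested for these pairs alone. The median of arachnoid and pial genes was 1.79 in PT 7 d LEV and -0.35 in PT 7 d. The median of vascular smooth muscle genes was 0.72 in PT 7 d LEV and -0.038 in PT 7 d. Ptgds differed by 2.35 in PT 7 d LEV and by -0.82 in PT 7 d. For Crabp2 the differences were 2.13 in PT 7 d LEV and -0.68 in PT 7 d, and for Osr1 they were 1.90 and -1.15. Slc6a13 differed by 1.85 in PT 7 d LEV and by -0.70 in PT 7 d. The smooth muscle gene Lmod1 differed by 0.77 in PT 7 d LEV and by -0.60 in PT 7 d. In limma, 0 genes passed for the side difference in PT 7 d LEV minus that of the other 4 conditions, with 500 at an unadjusted p under 0.05. edgeR called 0 and DESeq2 called 1, Acta2.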

How the results depend on the processing

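The counts past a fold depended on how low values were treated. With a pseudocount of 5, 33 genes were higher on the infarcted side by a fold of 2 and 150 by a fold of 1.5, and 0 were lower by 1.5. With genes of at least 5 CPM alone, 49 were higher by a fold of 2 and 208 by 1.5, and 2 were lower by 1.5. With a pseudocount of 0.5, 2 genes were lower by a fold of 2 and 85 by 1.5, and with no filter 65 were lower by 1.5. These follow from how such settings treat low genes. TMM scaling moved the median of all genes by -0.02. Leaving out the other pairs in turn, limma called 0 to 24 genes between sides and 0 to 1 for the contrast with the other 4 conditions, with 24 and 1 without the PT 1 m pair; DESeq2 called 1 and 1. The cause was not tested. List medians moved by no more than the SD of the other 4 conditions' medians in 162 of 168 alternatives. Kept in sign, 18 alternatives moved by over 1.5 times. Examples were complement at 0.28 and border macrophages with monocytes at 0.41, both with a pseudocount of 5, and proliferation at 0.36 with no filter. With genes of at least 5 CPM, 2 medians near 0 changed sign, oligodendrocyte precursors to 0.063 and dentate granule cells to -0.012. Those that moved by more than that SD were complement at 1.36 with genes of at least 5 CPM, and, with a pseudocount of 5, antigen presentation at 0.40, smooth muscle at 0.34 and neocortex, thalamus and striatum at 0.20. That last list was at 0.24 with no filter and at 0.17 with genes of at least 5 CPM. Of named genes, 27 of 666 alternatives moved past the counting interval, most with a pseudocount of 5, and 0 of those past a fold of 1.5 changed sign. No paired analysis was possible because each group has 1 library, beyond the block for condition in limma, which pairs the sides of each condition. With 1 library a side, animals, dissection and side cannot be told apart.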
